A study of Mus musculus with 21 samples.

Results

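The data describe the first 2 h of exposure of SMB21 cells, an established mouse line of sonic hedgehog (SHH) medulloblastoma derived from brain, to quisinostat, an inhibitor of histone deacetylases that the labels also call JNJ. They comprise 6 of the 21 RNA-seq libraries of the series. The 3 DMSO 2 h libraries came from SMB21 cells given the solvent DMSO for 2 h, and the 3 JNJ 2 h libraries from SMB21 cells given quisinostat for 2 h. All were grown in DMEM/F12 with B-27, and none of the 6 carried a transgene, hairpin or selection named in the labels. The labels give no dose of quisinostat. Of 24047 genes in the table, 14467 had enough counts to be tested. SMB21 is 1 line. The labels leave unsaid whether the 3 libraries of a group are separate cultures, and p-values here therefore speak of the spread between libraries, part of which may be technical. DMSO 24 h and JNJ 24 h libraries, also 3 each, entered the same fit and give the later values quoted beside the early ones.

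Histone deacetylases remove acetyl groups from the lysines of histone tails and of other proteins, and work in complexes with co-repressors that sequence-specific factors bring to DNA. Inhibitors of these enzymes let acetylation build up within minutes to hours, and the mRNAs seen first are those whose synthesis changes soonest or whose decay is fastest. Granule neuron progenitors of the cerebellum, from which SHH medulloblastoma arises, are held in cycle by hedgehog signalling and carry the bHLH factor Atoh1, Zic factors and Barhl1.

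The 6 libraries held 28465310 to 39341784 counted reads. On the scale of CPM, the count of a gene scaled to a fixed library size, here with the plain library total, the 13 markers of SHH medulloblastoma and granule progenitors, all tested, summed to 2808 to 3859 CPM with DMSO and 2134 to 3251 CPM with JNJ. Of these 13, Atoh1 (log2 -1.29), Barhl1 (-1.46) and the cyclin Ccnd1 (-1.15) fell with JNJ in the edgeR test, and the other 10 were not called (Sfrp1 was without JNJ replicate 3, adjusted p = 0.0476). Sfrp1, a secreted Wnt antagonist, was at 503 to 814 CPM with DMSO and at 1647, 778 and 595 CPM with JNJ, and carried much of the sum in JNJ replicate 1. Of the markers of other cells, Ptprc, Aif1 and Itgam (microglia and blood), Mog and Mag (oligodendrocytes) and Col1a2 and Dcn (fibroblasts) had at most 3 counts in each of the 6 libraries. The 4 astrocyte markers summed to 231 to 383 CPM with DMSO and 278 to 404 CPM with JNJ, nearly all of it from the glutamate transporter Slc1a2, while Aqp4 and Aldh1l1 were at or near 0. Summed endothelial markers were 0.839 to 10.5 CPM with DMSO and 1.48 to 12.7 CPM with JNJ, and summed fibroblast markers 0.407 to 2.53 CPM and 1.38 to 6.04 CPM. In bulk RNA, fewer cells of a type and less RNA per cell cannot be told apart. Replicate 3 of both groups stood apart from the other libraries: the first principal component (44.3% of the variance) parted JNJ from DMSO and the second (33.5%) parted both replicate 3 libraries, at -57.6 and -54.0, from the other 4, at 18.3 to 41.2. The numbers are in the labels, but nothing there says that they mark a culture or a day.

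After 2 h, 1318 of the 14467 genes tested were higher with JNJ (9.11%) and 664 were lower (4.59%), at an adjusted p under 0.05 in edgeR's quasi-likelihood test with Benjamini-Hochberg adjustment, which is what "called", "rose" and "fell" mean here. The shares of 9.11% and 4.59% over all genes tested are the background for each count of called list members below. Falls were smaller than rises: the median called rise was 1.21 on the log2 scale and the median called fall -0.89, and 853 genes (5.9% of those tested) rose by at least 2-fold against 251 (1.73%) that fell by as much. Of genes whose mean was 5 CPM or more, Rhpn2 stood at 1.94, 1.52 and 1.81 CPM with DMSO and 24.9, 17.4 and 27.4 CPM with JNJ (log2 3.72, SE 0.26, adjusted p = 2.97e-05). Nbn, which codes for the nibrin subunit of the MRN DNA repair complex, stood at 49.1, 49.1 and 53.8 CPM with DMSO and 9.69, 13.9 and 15.6 CPM with JNJ (log2 -1.96, SE 0.25, adjusted p = 0.000657). In neither gene did the groups overlap, a condition of the rule that named the largest changes at this level. Over all genes tested, 13.9% had every JNJ library above every DMSO library, and 11.7% had every one below. With upper-quartile scaling, 54.5% of the calls were higher (1089 higher, 909 lower), against 66.5% here, and the median log2 of all genes moved from 0.03 to -0.04.

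The size of the response differed between the JNJ libraries. Over the called higher genes, the median log2 change from the DMSO mean was 1.49 in JNJ replicate 1, 1.10 in replicate 2 and 0.94 in replicate 3. Over the called lower genes it was -1.10, -0.82 and -0.77. Counts of calls moved with single libraries: 693, 668, 693 and 2145 genes were called higher without DMSO replicate 1, DMSO replicate 2, JNJ replicate 1 and JNJ replicate 3, and 395, 350 and 1220 lower without DMSO replicate 2, JNJ replicate 1 and JNJ replicate 3. Without replicate 3 of both groups, 1784 were called higher and 1012 lower. Of the called genes, 519 higher and 286 lower were called again without each of the 6 libraries in turn. No called gene was called in the opposite direction in any of these fits. The genes described below are from these held calls unless an adjusted p without a library is given beside them. Of these held genes, Dnajb9, Efna4, Fgfr1, Kat6b, Numb, Scn3b, Sirt1, Sirt7, Sort1 and Znrf3 missed the threshold in a fit of the 6 libraries at 2 h alone, with adjusted p from 0.0504 to 0.0799.

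**Figure D1:**
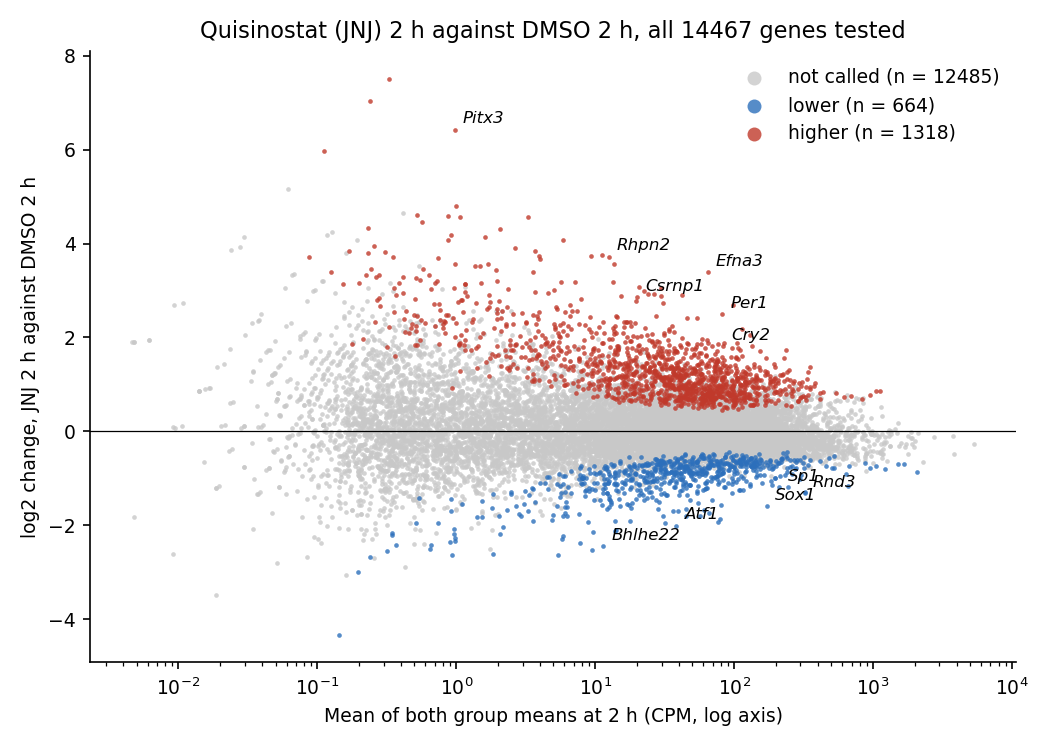
Log2 change of JNJ 2 h against DMSO 2 h (vertical axis) against the mean of both group means in CPM (horizontal log axis) for the 14467 genes tested, 1 point each. Red points are the 1318 genes called higher, blue the 664 called lower and grey the rest, and the red points reach farther from 0 than the blue ones.

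The circadian clock runs on a loop in which Clock and Arntl drive the Per and Cry genes through the E-box CACGTG, and the Per and Cry proteins then repress Clock and Arntl. Of 18 tested genes of this loop and its outputs, 8 rose with JNJ (44.4%, against 9.11% of all genes tested), and the list's median log2 was 0.50, against 0.03 over all genes. The risers were both repressor arms: Per1, Per2, Cry1, Cry2 and the repressor Ciart, with the output factors Dbp and Hlf and the heme receptor Nr1d1. The activators were not called, with a log2 of 0.20 for Clock and 0.23 for Arntl, and neither were Per3 (0.17), Nr1d2 (-0.48), Rora (0.55) and Tef (-0.30). Members of this list beyond Per1, Cry2, Ciart, Dbp and Hlf were named after their values were seen.

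The 250 bases before the start of 3 of the risers are printed because each holds the E-box through which Clock and Arntl are known to act on clock genes. The sequences are RefSeq's for GRCm38.p6, 5′ to 3′ along the gene, and CACGTG, which reads the same on both strands, is in capitals. Per1 is at chr11:69098699-69098948 (plus strand), with its first motif 166 bases before the start. Ciart is at chr3:95882229-95882478 (minus strand), with 3 motifs, the first 116 bases before the start. Cry1 is at chr10:85185055-85185304 (minus strand), with its first motif 60 bases before the start.
Per1: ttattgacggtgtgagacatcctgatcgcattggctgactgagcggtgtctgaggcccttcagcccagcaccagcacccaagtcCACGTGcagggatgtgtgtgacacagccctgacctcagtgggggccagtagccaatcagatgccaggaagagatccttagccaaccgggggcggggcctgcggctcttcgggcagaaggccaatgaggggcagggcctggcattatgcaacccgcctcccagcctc
Ciart: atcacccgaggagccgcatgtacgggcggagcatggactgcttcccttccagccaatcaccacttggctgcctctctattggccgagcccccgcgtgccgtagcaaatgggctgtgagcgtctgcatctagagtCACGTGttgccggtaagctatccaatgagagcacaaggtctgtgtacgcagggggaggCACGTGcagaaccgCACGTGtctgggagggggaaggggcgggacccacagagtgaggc
Cry1: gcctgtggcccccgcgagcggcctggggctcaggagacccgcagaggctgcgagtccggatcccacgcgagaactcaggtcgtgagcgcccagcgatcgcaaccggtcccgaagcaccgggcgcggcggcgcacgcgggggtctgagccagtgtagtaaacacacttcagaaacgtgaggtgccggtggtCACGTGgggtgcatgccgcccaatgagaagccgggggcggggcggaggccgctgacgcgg
Taking the first listed start of each gene, 5 of 15 (33.3%) tested clock genes with an entry held CACGTG in this window, against 902 of 10720 (8.41%) of all tested genes with an entry. The 5 are Per1, Ciart, Cry1, Tef and Bhlhe41, of which Tef and Bhlhe41 were not called at 2 h. The risers Cry2, Dbp, Hlf and Nr1d1 did not hold these letters in the window, and the table had no entry for Per2. A match is a description of letters and not of a bound site.

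Per1 stood at 21.1, 26.5 and 26.8 CPM in the DMSO libraries and 114, 132 and 172 CPM in the JNJ libraries (log2 2.49, SE 0.21, adjusted p = 8.54e-05). Its lowest JNJ library lay over 4 times above its highest DMSO library. Cry2 stood at 25.3, 43.4 and 41.4 CPM in the DMSO libraries and 135, 103 and 151 CPM in the JNJ libraries (log2 1.82, SE 0.24, adjusted p = 0.000701), and Ciart at 4.5, 13.9 and 11.1 CPM in the DMSO libraries and 29.4, 32.5 and 37.8 CPM in the JNJ libraries (log2 1.76, SE 0.36, adjusted p = 0.00739). None of these 3 genes had overlapping groups, and each was called without any 1 library. The other 5 had smaller changes: Per2 rose by 1.42, Hlf by 1.35, Dbp by 1.26, Nr1d1 by 0.96 and Cry1 by 0.79 on the log2 scale. Their calls, and the missing call of Nr1d2 (adjusted p = 0.0372 without JNJ replicate 3), rest on single libraries. Per2 had an adjusted p of 0.0838 without DMSO replicate 1 and 0.0945 without JNJ replicate 1, Hlf 0.0578 without DMSO replicate 1 and 0.0612 without DMSO replicate 2, and Dbp 0.0593 without DMSO replicate 1. Nr1d1 had 0.0924 without DMSO replicate 1, 0.0691 without DMSO replicate 3 and 0.0794 without JNJ replicate 2, and Cry1 0.15 without DMSO replicate 1, 0.131 without DMSO replicate 2, 0.0633 without JNJ replicate 1 and 0.0845 without JNJ replicate 3. The list's count was 3 without DMSO replicate 1. At 24 h the log2 change was 0.52 for Per1, 0.37 for Cry2 and -0.06 for Ciart. The drop from 2 h to 24 h passed its own test for Per1 (adjusted p = 0.00773) and Cry2 (adjusted p = 0.0297) and missed it for Ciart (adjusted p = 0.0601).

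Transcription factor genes moved in both directions. Over all the transcription factor lists, 801 genes were tested, 87 rose (10.9%) and 93 fell (11.6%, against 4.59% of all genes tested), with a median log2 of -0.09. Most of these falls were in zinc finger genes, described below. Of the 93, 54 were among 307 tested genes named Zfp and a number, and 8 among 60 Zbtb, Zscan and Zkscan genes. Several other falls were in factors of neural development, and members of the same families also rose. Of 13 tested Sox genes, 4 fell (30.8%, against 4.59% of all genes tested) and 1 rose (7.69%, against 9.11%). The riser and 1 of the 4 were called without each of the 6 libraries. The lower Sox count was 2 without any 1 of DMSO replicate 1, DMSO replicate 2 or JNJ replicate 1. It was 1 without JNJ replicate 2. Sox1, an HMG-box factor of neural stem cells, stood at 219, 281 and 269 CPM in the DMSO libraries and 74.3, 82 and 99.9 CPM in the JNJ libraries (log2 -1.59, SE 0.19, adjusted p = 0.000441), with no overlap. Bhlhe22, a bHLH repressor of neuronal subtypes, stood at 28.4, 19.6 and 9.93 CPM with DMSO and 4.01, 3.95 and 2.71 CPM with JNJ (log2 -2.44, SE 0.48, adjusted p = 0.00572). Barhl1, a homeobox factor of the granule lineage, fell by 1.46 on the log2 scale, and Id2, which binds bHLH partners and keeps progenitors undifferentiated, stood at 195, 174 and 167 CPM with DMSO and 74.5, 70.8 and 99.3 CPM with JNJ (log2 -1.13, SE 0.23, adjusted p = 0.00684). Of 20 proneural and granule lineage bHLH genes, 2 rose (10%, against 9.11% of all genes tested) and 3 fell (15%, against 4.59%). The higher count was 1 without any 1 of DMSO replicate 1, DMSO replicate 2 or JNJ replicate 1, and the lower count 6 without JNJ replicate 3. Nhlh2, a bHLH factor of early neurons, fell by 1.53 (adjusted p = 0.0547 without JNJ replicate 2). In the other direction, Ascl2, an achaete-scute factor known from intestine and trophoblast, stood at 0.0285, 0.136 and 0.0863 CPM with DMSO and 2.6, 1.46 and 2.11 CPM with JNJ (adjusted p = 0.000858). Hes7, an oscillating repressor of the somites, had 1, 3 and 3 counts with DMSO and 69, 38 and 58 with JNJ (adjusted p = 0.000363).

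Atf1, a CREB-family factor that binds cAMP response elements, stood at 61.5, 63.1 and 59.3 CPM in the DMSO libraries and 12, 16.5 and 17.3 CPM in the JNJ libraries (log2 -2.0, SE 0.23, adjusted p = 0.000331). Its 2 groups of libraries did not overlap. Sp1, a GC-box factor of many promoters, stood at 244, 333 and 305 CPM with DMSO and 93, 138 and 157 CPM with JNJ (log2 -1.19, SE 0.20, adjusted p = 0.00258), and its relative Sp2 at 55.3, 101 and 54.8 CPM with DMSO and 15.3, 25.5 and 19.8 CPM with JNJ (log2 -1.80, SE 0.27, adjusted p = 0.00139). Of the 23 Krueppel-like and Sp genes, 2 rose (8.7%, near the 9.11% of all genes tested) and 3 fell (13%, against 4.59%). That count of rises was 1 without any 1 of DMSO replicate 2, DMSO replicate 3 or JNJ replicate 1. Of the 26 AP-1, Maf and ATF genes, 5 rose (19.2%, against 9.11% of all genes tested) and 3 fell (11.5%, against 4.59%). The higher count was 3 without any 1 of DMSO replicate 1 or JNJ replicate 3, and 2 without DMSO replicate 2, and the lower count 5 without JNJ replicate 3. The ER-membrane factors Atf6 (1.23) and Creb3 (1.33), which are cut free in the Golgi and move to the nucleus, rose. At 24 h Atf1 was still lower (log2 -1.40).

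Members of the Myc and Mad network moved in opposite directions. In it, the Myc and Mxd1 proteins compete for the partner Max. Myc stood at 52.4, 40.1 and 63.3 CPM in the DMSO libraries and 27.1, 15.8 and 25.7 CPM in the JNJ libraries (log2 -1.18, SE 0.25, adjusted p = 0.00856). Its antagonist Mxd1 stood at 14.7, 16.6 and 40.6 CPM in the DMSO libraries and 73, 71.3 and 99 CPM in the JNJ libraries (log2 1.76, SE 0.33, adjusted p = 0.0044). The groups did not overlap in either gene. Of 12 tested genes of the network, 3 rose (25%, against 9.11% of all genes tested) and 1, Myc, fell. Besides Mxd1, the risers were the glucose-sensing partner factor Mlxip (1.10) and Mlx (0.67), the latter with an adjusted p of 0.124 without DMSO replicate 1, 0.119 without DMSO replicate 2 and 0.0572 without JNJ replicate 3. At 24 h Myc was at -0.13, and the difference between times had an adjusted p of 0.102.

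Of 103 tested homeobox genes outside the Hox clusters, 12 rose (11.7%) and 5 fell (4.85%), shares near the 9.11% and 4.59% of all genes tested. Higher calls numbered 7 without DMSO replicate 1, and 5 without DMSO replicate 2, and lower calls numbered 1 without DMSO replicate 1, 2 without any 1 of DMSO replicate 2, JNJ replicate 1 or JNJ replicate 2, and 8 without DMSO replicate 3. Pitx3, a factor of lens and midbrain dopamine neurons, had 1, 0 and 1 counts in the DMSO libraries and 86, 28 and 81 in the JNJ libraries (adjusted p = 0.000356). Pou4f2, a factor of retinal ganglion cells, rose by 3.14 and Lhx4, of motor neurons and pituitary, by 1.72. Of 26 Hox genes tested, 0 were called by edgeR, 0 passed an unadjusted p under 0.05 and 0 were called by DESeq2. Their log2 values ran from -2.69 to 0.86, with a median of -0.76. At 24 h 13 of the 26 were called higher, where 18.1% of all genes tested were, and the median was 2.08. A Hox gene may have passed the filter through the 24 h libraries. One near the floor at 2 h could hardly be called then. Of 35 nuclear receptor genes, 6 rose (17.1%), among them the retinoic acid receptor Rarg (1.80) and the orphan receptor Nr6a1 (1.85). That count was 3 without DMSO replicate 1.

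**Figure D2:**
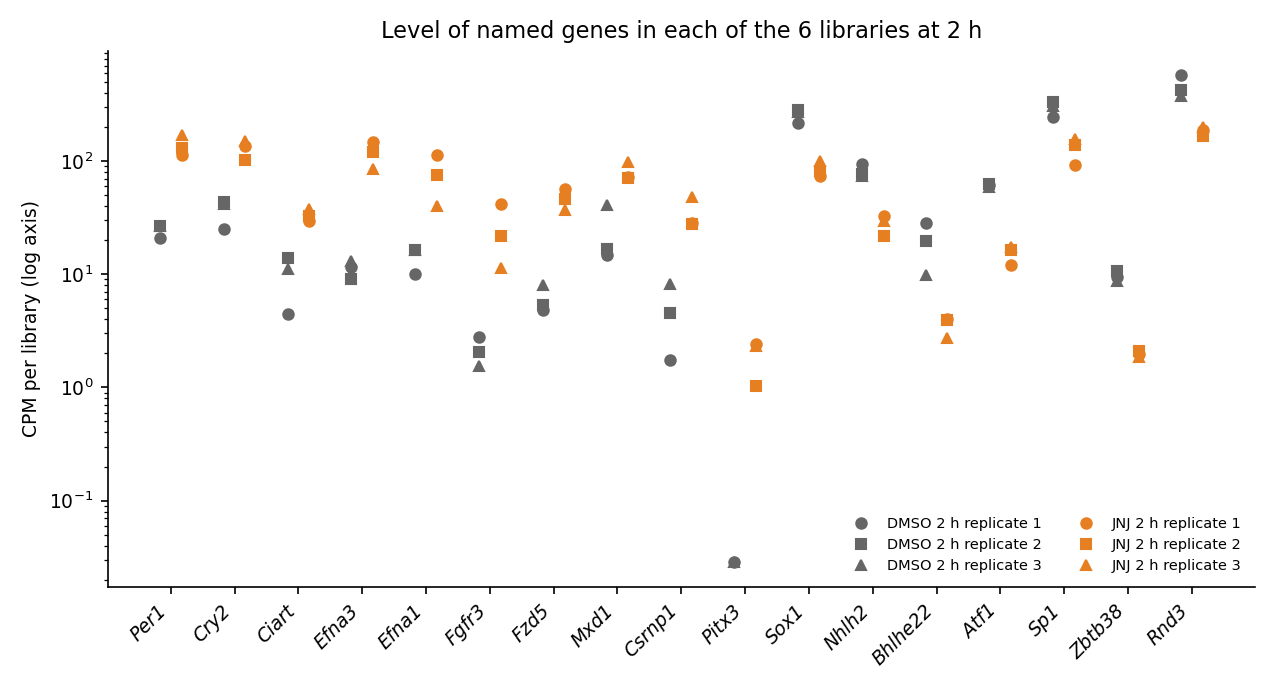
CPM (vertical log axis) of 17 named genes in each of the 6 libraries at 2 h, DMSO in grey and JNJ in orange, with 1 symbol for each replicate number. From Per1 to Pitx3 every JNJ library lies above every DMSO library, and from Sox1 to Rnd3 every one lies below; the DMSO replicate 2 library of Pitx3, with 0 counts, cannot be drawn on this axis.

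Zinc finger genes leaned downward. Of 307 tested genes named Zfp and a number, most of which code for C2H2 proteins, 54 fell (17.6%, against 4.59% of all genes tested) and 26 rose (8.47%, against 9.11%), with a median log2 of -0.14. Of the 54, 30 were called without each of the 6 libraries, and of the 26, 10 were. Leaving out a library gave a lower count of 35 without DMSO replicate 2, and higher counts of 11 without DMSO replicate 1, 13 without DMSO replicate 2, 15 without DMSO replicate 3, and 14 without JNJ replicate 1. Zfp341 stood at 11.2, 17.7 and 13.4 CPM with DMSO and 3.64, 4.46 and 2.91 CPM with JNJ (log2 -1.94, SE 0.25, adjusted p = 0.000637) and Zfp74 at 20.9, 17.3 and 18.8 CPM with DMSO and 5.85, 7.02 and 5.77 CPM with JNJ (log2 -1.61, SE 0.19, adjusted p = 0.000363). Zfp866 fell by 1.27 and Zfp637 fell by 1.24. Against this, Zfp78 rose by 1.73, Zfp516 by 1.30 and Zfp654 by 1.10. Many genes of this family have close relatives, and reads shared between them may have been split or lost by the authors' counting. At 24 h, where 15.1% of all genes tested were called lower and 18.1% higher, 35 of the 54 were lower and 7 of the 26 higher. Of the 60 Zbtb, Zscan and Zkscan genes, 8 rose and 8 fell (13.3% each way, against 9.11% and 4.59%). Leaving out libraries gave higher counts of 4 without any 1 of DMSO replicate 1 or DMSO replicate 2, and 5 without JNJ replicate 1. Zbtb38, a reader of methylated DNA, stood at 9.54, 10.6 and 8.63 CPM with DMSO and 1.96, 2.08 and 1.85 CPM with JNJ, with tight and separate groups (log2 -2.29, SE 0.25, adjusted p = 0.000286).

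Short-lived transcripts, which include immediate-early genes and their feedback inhibitors, did not move 1 way. Of 60 tested, 9 rose (15.0%, against 9.11% of all genes tested) and 10 fell (16.7%, against 4.59%). The higher count was 4 without any 1 of DMSO replicate 1 or DMSO replicate 2. Csrnp1, a serine-rich nuclear protein induced by axin, stood at 1.74, 4.57 and 8.15 CPM in the DMSO libraries and 28.5, 27.9 and 48.2 CPM in the JNJ libraries (log2 2.86, SE 0.45, adjusted p = 0.00179). Ier3, an early gene that acts on survival signals, rose by 1.19 on the log2 scale. The lower ones included Nfkbia, the inhibitor that holds NF-kappaB in the cytoplasm, at 40.1, 52.9 and 81 CPM with DMSO and 18.6, 19.9 and 29.5 CPM with JNJ (log2 -1.35, SE 0.28, adjusted p = 0.00707). Gadd45g, a stress-induced growth arrest gene, stood at 91.1, 115 and 109.7 CPM with DMSO and 44.6, 48.7 and 51.9 CPM with JNJ (log2 -1.12, SE 0.21, adjusted p = 0.00428). Of 31 tested immediate-early genes, 4 rose and 2 fell, where 9.11% and 4.59% of all genes tested did. The higher count was 2 without DMSO replicate 1 and 1 without DMSO replicate 2. The lower count was 1 without any 1 of DMSO replicate 2, DMSO replicate 3, JNJ replicate 1 or JNJ replicate 2. The early genes Fos (0.50, adjusted p = 0.63), Jun (-0.67, adjusted p = 0.0888) and Egr1 (1.11, adjusted p = 0.124) were not called. Jun was called lower with upper-quartile scaling (adjusted p = 0.0448), without JNJ replicate 3 (adjusted p = 0.0126) and without replicate 3 of both groups (adjusted p = 0.026). Egr1 was called higher without DMSO replicate 3 (adjusted p = 0.0215) and without replicate 3 of both groups (adjusted p = 0.0332). Of 23 feedback inhibitors of cytokine, NF-kappaB and BMP signalling, 5 rose (21.7%) and 3 fell (13%). The higher count was 2 without DMSO replicate 1, and 1 without any 1 of DMSO replicate 2, DMSO replicate 3, JNJ replicate 1 or JNJ replicate 2. Within the NF-kappaB inhibitors the directions differed, since Nfkbie rose by 2.20 while Nfkbia fell. Tnip1, which binds the ubiquitin editor A20, fell by 1.12. At 24 h Tnip1 was at 0.21, and the difference passed its test (adjusted p = 0.0225).

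Among the genes of chromatin itself, several genes of histone acetyltransferases and their complexes fell. Of 21 tested acetyltransferase and BET reader genes, 5 fell (23.8%, against 4.59% of all genes tested) and 1 rose, with a median log2 of -0.38. The riser was Brdt, the BET reader of the testis, at 1.65, 1.3 and 2.73 CPM with DMSO and 8.74, 3.4 and 5.14 CPM with JNJ (log2 1.60, adjusted p = 0.0243, and 0.0913 without DMSO replicate 1, 0.104 without DMSO replicate 2 and 0.118 without JNJ replicate 1). The lower count was 3 without any 1 of DMSO replicate 3 or JNJ replicate 1, and 8 without JNJ replicate 3. Brpf3, a scaffold of the acetyltransferase HBO1, fell by 1.5 and Kat6b, an acetyltransferase of histone H3, fell by 0.89. All 5 were also called lower at 24 h. Of the 28 Jumonji and LSD demethylase genes, 4 rose (14.3%) and 1, Kdm8, fell. That higher count was 1 without any 1 of DMSO replicate 1 or DMSO replicate 2, and 2 without DMSO replicate 3, and the lower count 4 without JNJ replicate 3. Kdm5b, which removes a methyl mark of active promoters from histone H3, rose by 1.03. Of 18 deacetylase and sirtuin genes, 1 rose, Sirt7 (log2 1.07), and 2 fell (11.1%, against 4.59% of all genes tested). The lower count was 1 without any 1 of DMSO replicate 1, DMSO replicate 2, DMSO replicate 3, JNJ replicate 1 or JNJ replicate 2. Sirt1, the NAD-dependent deacetylase of p53 and other proteins, fell by 1.08. In the machinery of transcript elongation, Larp7, which binds the 7SK RNA that restrains P-TEFb, fell by 0.90, and Hexim1, the protein partner in that restraint, was at -0.50 (adjusted p = 0.353). Of 28 tested genes of P-TEFb, 7SK and elongation, 2 rose and 3 fell. Rises there numbered 0 without any 1 of DMSO replicate 1, DMSO replicate 2 or JNJ replicate 1, and falls 7 without JNJ replicate 3. The Mediator subunit Med11 fell by 1.65. Of 33 Mediator genes, 0 rose and 2 fell, and 1 fell without any 1 of DMSO replicate 1, DMSO replicate 2 or JNJ replicate 1.

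Genes for signals and receptors at the cell surface were among the risers. Ephrins are membrane-bound ligands that signal between touching cells through Eph receptor kinases. Of 21 tested ephrin and Eph genes, 11 rose (52.4%, against 9.11% of all genes tested), and 10 of the 11 did so without each of the 6 libraries. Their median log2 was 0.95. Efna3 stood at 11.5, 9.02 and 13 CPM in the DMSO libraries and 148, 121 and 84.7 CPM in the JNJ libraries (log2 3.40, SE 0.28, adjusted p = 8.54e-05), and Efna1 at 10.1, 16.6 and 16.4 CPM in the DMSO libraries and 113, 76.1 and 40.5 CPM in the JNJ libraries (log2 2.42, SE 0.35, adjusted p = 0.00118). In both ligands JNJ replicate 1 was the highest library and JNJ replicate 3 the lowest of the JNJ libraries, and every one of them lay above the DMSO range. Efnb1 rose by 1.17. Epha10, a receptor without kinase activity, had 1, 3 and 1 counts with DMSO and 89, 16 and 7 with JNJ (adjusted p = 0.00781). The receptors Epha2 (2.32) and Ephb3 (2.06) and the ligands Efnb3 (2.54) and Efna4 (1.41) rose too. These 4 were named after their values were seen, as were other members of the signalling lists where they are not among the 3 with the lowest p. At 24 h Efna3 was at 2.99 and Efna1 at 0.38, and the drop passed its test for Efna1 (adjusted p = 0.0339) and not for Efna3 (adjusted p = 0.555).

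Fibroblast growth factors act through receptor kinases and keep hindbrain progenitors dividing or patterned. Of 17 tested ligand and receptor genes, 7 rose (41.2%, against 9.11% of all genes tested), with a median log2 of 0.88. The count was 4 without any 1 of DMSO replicate 2 or JNJ replicate 1. Fgfr3 stood at 2.79, 2.04 and 1.55 CPM in the DMSO libraries and 42.1, 21.9 and 11.4 CPM in the JNJ libraries (log2 3.56, SE 0.53, adjusted p = 0.00126). The JNJ libraries differed among themselves by more than 3-fold, and the lowest was still above every DMSO library. The ligand Fgf8, the organiser signal of the midbrain and hindbrain border, rose by 2.18, and the receptors Fgfrl1 by 1.55 and Fgfr1 by 0.90.

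In the Wnt pathway, Frizzled receptors take up secreted Wnt ligands. Of its 44 tested genes, 9 rose (20.5%, against 9.11% of all genes tested) and 1 fell. Of the 9, 8 did so without each of the 6 libraries, and the lower count was 0 without any 1 of DMSO replicate 2, DMSO replicate 3, JNJ replicate 1 or JNJ replicate 2. The receptor Fzd5 stood at 4.79, 5.38 and 8.09 CPM in the DMSO libraries and 56.2, 46.2 and 37.3 CPM in the JNJ libraries (log2 2.94, SE 0.27, adjusted p = 0.000124), and Fzd4 and Fzd2 rose by 2.25 and 1.35. The ligand Wnt11 rose by 3.57. Wnt7a, a ligand of cerebellar granule neurons, stood at 0.0285, 0.136 and 0.0288 CPM with DMSO and 3.22, 1.39 and 1.13 CPM with JNJ (adjusted p = 0.00204). Kremen1 (1.65) and Znrf3 (0.93), which remove Wnt receptors from the surface, also rose, so that ligands, receptors and antagonists were all among the risers.

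Of 38 TGF-beta and BMP ligand and receptor genes, 12 rose (31.6%, against 9.11% of all genes tested). The count was 6 without any 1 of DMSO replicate 3 or JNJ replicate 1. The BMP antagonist Nog, at 1.85, 1.85 and 2.91 CPM with DMSO and 11.1, 8.48 and 7.07 CPM with JNJ, rose by 2.01 (adjusted p = 0.00215). The ligand Gdf11 rose by 1.52, the type I receptor Acvr1 by 1.27 and the activin-binding protein Fstl3 from 1, 2 and 1 counts to 31, 25 and 42 (adjusted p = 0.00232). Acvr1 was back at -0.14 at 24 h, and that difference passed its test (adjusted p = 0.0315). In the Notch list 5 of 24 rose (20.8%). That count was 3 without any 1 of DMSO replicate 1, DMSO replicate 2, DMSO replicate 3 or JNJ replicate 1, and 8 without JNJ replicate 3. The ligands Dll4 (3.02) and Jag2 (2.43) and Numb (0.87), an inhibitor of Notch that is shared out unequally between daughter cells, were called without any 1 library.

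Neurotrophin and GDNF family genes serve the survival and outgrowth of neurons. Of 15 tested, 5 rose (33.3%, against 9.11% of all genes tested). Ret, the signalling receptor of the GDNF ligands, stood at 0.199, 0.136 and 0.259 CPM with DMSO and 2.35, 0.805 and 0.75 CPM with JNJ (log2 2.71, SE 0.48, adjusted p = 0.00332), and the GDNF relative Nrtn rose by 2.04. Sort1, a sorting receptor that binds neurotrophin precursors, rose by 0.95. The change in Ret was larger at 24 h (log2 6.22, difference 3.52, adjusted p = 0.0175). Among the lipid and small-ligand receptors coupled to G proteins, 5 of 24 rose (20.8%) and 1 fell. The lower count was 0 without any 1 of DMSO replicate 1 or DMSO replicate 2. S1pr1, a receptor of sphingosine 1-phosphate, rose by 2.60. Rnd1 and Rnd3, small GTPases that both oppose RhoA and lack GTP hydrolysis, moved in opposite directions. Rnd3 stood at 576, 429 and 373 CPM with DMSO and 188, 166 and 199.7 CPM with JNJ (log2 -1.31, SE 0.21, adjusted p = 0.00211), whereas Rnd1 rose by 2.98.

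**Figure D3:**
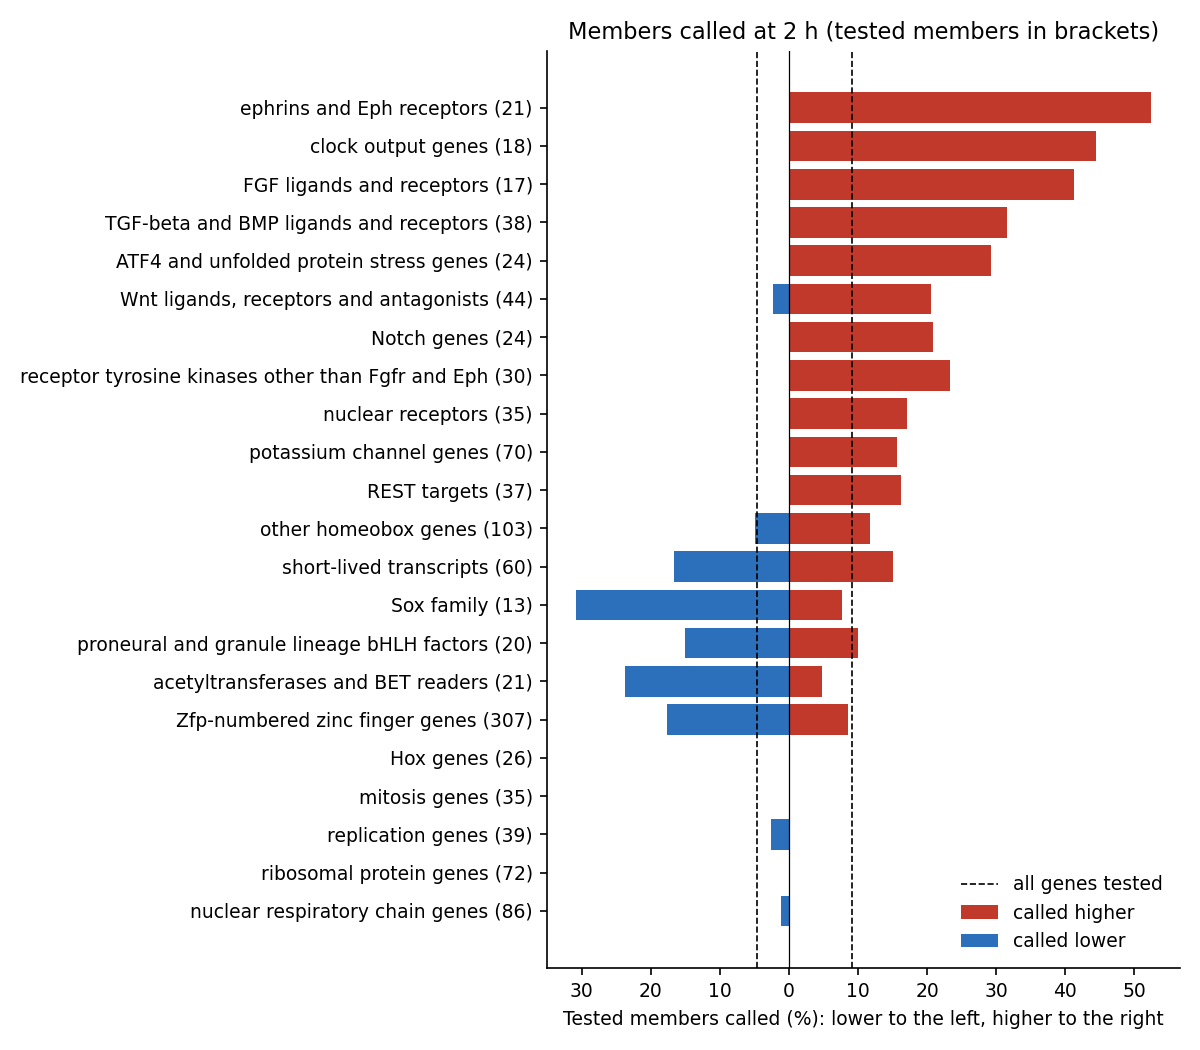
Share of the tested members of 22 gene lists called higher (red, to the right) and lower (blue, to the left) at 2 h, in percent, with the number tested in brackets. Dashed lines give the shares over all genes tested, 9.11% higher and 4.59% lower; ephrins and Eph receptors reach 52.4% to the right, and Hox, mitosis and ribosomal protein genes have no bar.

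Some genes of neuronal function rose as well, in some lists and not in others. Rises numbered 7 of 36 presynaptic, 3 of 19 secretory granule and 5 of 44 sodium and calcium channel genes. Only 1 of 41 glutamate and GABA receptor, 1 of 29 microtubule and growth cone and 1 of 34 clustered protocadherin genes rose. Over all settings the first 3 counts ran from 2 to 9, 2 to 7 and 0 to 13. The last 3 ran from 0 to 6, 1 to 4 and 0 to 2. Of 70 potassium channel genes, 11 rose (15.7%, against 9.11% of all genes tested). The count was 7 without JNJ replicate 1, and 19 without JNJ replicate 3. Kcnj4 (2.48) and Kcnj12 (1.83), inward rectifiers, and the pacemaker channel Hcn2 (1.33) were among them, and 10 of the 11 were also called higher at 24 h. Of 37 genes repressed outside neurons by REST, a factor that recruits deacetylases, 6 rose (16.2%). That count was 10 without JNJ replicate 3. They included the sodium channel subunit Scn3b (1.34) and the vesicular glutamate transporter Slc17a7 (1.65). Slc17a7 went on to a log2 of 4.52 at 24 h (difference 2.87, adjusted p = 0.00485). Of 48 axon guidance genes, 8 rose (16.7%). That count was 4 without DMSO replicate 2, 5 without JNJ replicate 1, and 16 without JNJ replicate 3. Sema6c rose by 2.74, Sema6b by 1.85 and Sema4d by 1.80, all of them membrane semaphorins. Sema4d was lower at 24 h than at 2 h in its change (log2 0.56 at 24 h, adjusted p of the difference = 0.0404).

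Stress, death and cell cycle genes moved in part. Of 24 genes of ATF4 and the unfolded protein response, 7 rose (29.2%, against 9.11% of all genes tested). At 24 h, 0 of these 7 were called higher. The count was 2 without DMSO replicate 1, 4 without DMSO replicate 2, and 3 without JNJ replicate 1. Ppp1r15a, which restores translation after eIF2alpha is phosphorylated, rose by 1.04 and the ER chaperone partner Dnajb9 by 0.95. Atf4 itself stood at 235, 308 and 322 CPM with DMSO and 123, 185 and 202 CPM with JNJ (log2 -0.76, SE 0.24, adjusted p = 0.0547), which missed the threshold. It was called lower by DESeq2 (adjusted p = 0.0178), with upper-quartile scaling (0.0327), with either other filter on low counts (0.0429 and 0.0457) and without JNJ replicate 3 (0.0294). Of 15 death receptor and ligand genes, 5 rose (33.3%) and 1 fell. The higher count was 2 without any 1 of DMSO replicate 1 or JNJ replicate 1, and 3 without any 1 of DMSO replicate 2, DMSO replicate 3 or JNJ replicate 2, and the lower count 2 without any 1 of DMSO replicate 3 or JNJ replicate 3, and 0 without any 1 of JNJ replicate 1 or JNJ replicate 2. Tnfrsf1a, the main receptor of TNF, rose by 2.05 and Tnfrsf21 by 1.11. Bbc3, which codes for the BH3-only killer PUMA, rose by 1.95, 1 of 4 p53 target genes that rose of 22 (18.2%). The p53 count was 1 without any 1 of DMSO replicate 1 or DMSO replicate 2, and 2 without any 1 of DMSO replicate 3 or JNJ replicate 1.

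The G1 cyclins split. Of 8 tested G1 cyclins and kinases, 2 rose and 2 fell, where 9.11% of all genes tested rose and 4.59% fell. Rises numbered 0 without any 1 of DMSO replicate 1 or DMSO replicate 2, and the lower count 1 without any 1 of DMSO replicate 3, JNJ replicate 1 or JNJ replicate 2. Ccne1, a cyclin of the start of S phase, rose by 0.69 (adjusted p = 0.106 without DMSO replicate 1 and 0.128 without DMSO replicate 2), and its relative Ccne2 fell by 0.93 (adjusted p = 0.0572 without DMSO replicate 3, 0.0602 without JNJ replicate 1 and 0.0633 without JNJ replicate 2). Both were lower at 24 h. Of 39 replication genes, 1 fell (0 without any 1 of DMSO replicate 1, DMSO replicate 2, DMSO replicate 3 or JNJ replicate 1, and 2 without JNJ replicate 2), and 0 of 35 mitosis genes were called by edgeR. At an unadjusted p under 0.05, 10 replication and 6 mitosis genes were lower, and DESeq2 called 6 and 3 lower. Over all 14467 genes tested, 4199 had an unadjusted p under 0.05 in either direction, and DESeq2 called 1066 lower. At 24 h, 37 of the 39 replication genes and 26 of the 35 mitosis genes were called lower, against 15.1% of all genes tested. Of 72 ribosomal protein genes, 0 were called by edgeR, 0 passed an unadjusted p under 0.05 and 0 were called by DESeq2, with log2 values from -0.42 to 0.12. Of 86 nuclear respiratory chain genes, 1 fell (0 without any 1 of DMSO replicate 2 or JNJ replicate 1).

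Some genes that were at or near 0 in the DMSO libraries came on within 2 h. Of the whole table, 8912 genes had at most 3 counts in every DMSO 2 h library, and 180 of these had enough counts elsewhere to be tested. Of the 180, 20 were called higher. Since such a gene passed the filter mainly through libraries in which it was high, that share is not set against other genes. Magel2, a gene of the imprinted Prader-Willi region, had 0 counts in all DMSO libraries and 58, 1 and 11 with JNJ (adjusted p = 0.0907 without DMSO replicate 1, 0.0884 without DMSO replicate 2, 0.071 without DMSO replicate 3 and 0.143 without JNJ replicate 1). Snhg11, a small nucleolar RNA host gene, had 0, 1 and 2 counts with DMSO and 75, 6 and 2 with JNJ and was not called (adjusted p = 0.0841), but was called by DESeq2 (adjusted p = 0.031) and without JNJ replicate 3 (adjusted p = 0.0353). In both, most of the counts came from JNJ replicate 1.

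Few long genes were called at 2 h. Span is the distance from the annotated start to the end of a gene, introns included, in GENCODE M21 on GRCm38, and 95.2% of the genes tested had one. At 2 h, 8.20 to 11.3% of genes were called higher in each class of span under 100 kb, 5.73% at 100 to 200 kb and 0.364% (3 of 825) at over 200 kb. Called lower were 4.04 to 5.58%, 1.99% and 0.97% (8 of 825). The 3 long genes called higher were Sgms1, Nr6a1 and Slc10a7, which span 267, 204 and 225 kb, and the first and last of them were named after their values were seen. Without single libraries, Sgms1 had an adjusted p of 0.102 without DMSO replicate 2 and 0.0815 without JNJ replicate 1, and Slc10a7 of 0.119 without DMSO replicate 1, 0.166 without DMSO replicate 2, 0.0919 without DMSO replicate 3, 0.238 without JNJ replicate 1 and 0.0541 without JNJ replicate 2. At 24 h, 194 of the same 825 genes were called higher (23.5%) and 85 lower (10.3%). Long genes had lower levels, with a median of 13.2 CPM in DMSO against 25.4 to 41.02 CPM in the classes from 5 to 200 kb. Among genes at 10 to 50 CPM in the luciferase hairpin libraries, which enter no comparison here, 13.6% under 20 kb and 17.5% at 20 to 50 kb were called higher at 2 h, against 8.24% at 100 to 200 kb and 0.741% at over 200 kb. At 24 h the same 4 classes had 13.8%, 18.6%, 20.3% and 20.4%. The number of long genes called higher was 26 without JNJ replicate 3, 12 without replicate 3 of both groups, 5 without DMSO replicate 1 and 1 without either DMSO replicate 2 or JNJ replicate 1. The number called lower was 35 without JNJ replicate 3, 28 without replicate 3 of both groups, 14 without DMSO replicate 3, 4 without DMSO replicate 2, 2 without DMSO replicate 1 or JNJ replicate 2, and 1 without JNJ replicate 1. The highest of these counts for higher calls, 26, is 3.15% of the 825.

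**Figure D4:**
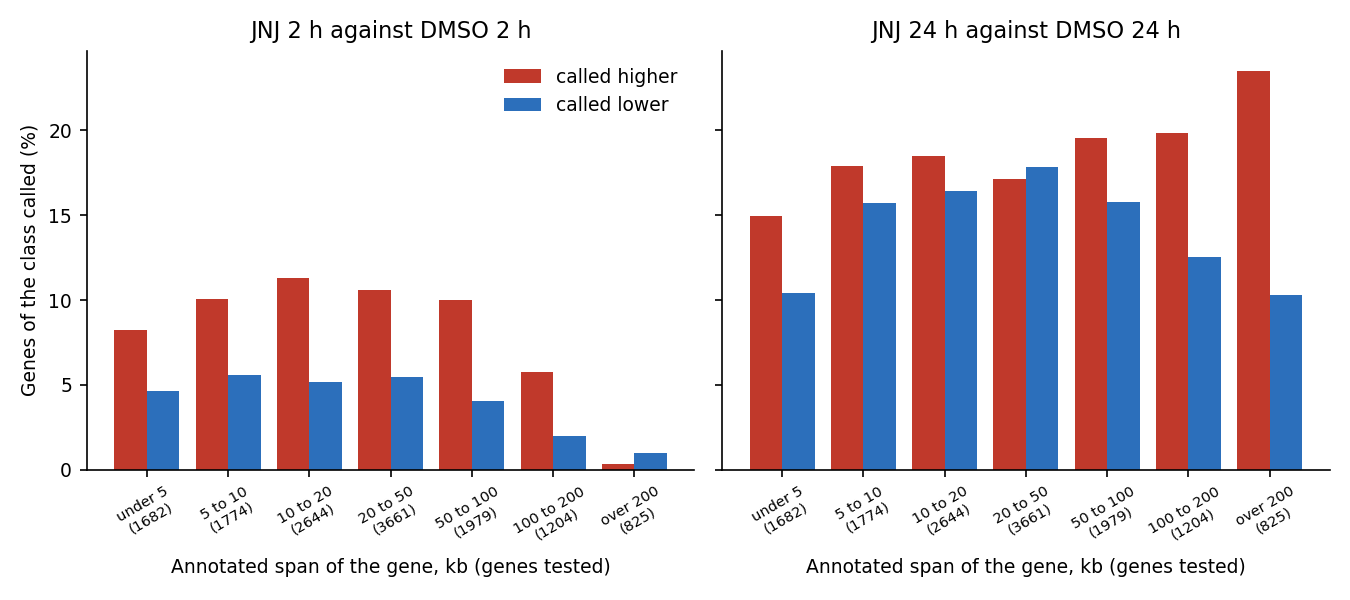
Share of genes called higher (red) and lower (blue), in percent, by annotated span of the gene in kb, with the number tested in brackets, at 2 h (left panel) and 24 h (right panel). At over 200 kb the red bar is 0.364% at 2 h and 23.5% at 24 h.

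The share of calls also followed the level of a gene. With genes split into 10 classes of equal size by their level in the luciferase hairpin libraries, 13.6 to 14.0% were called higher in classes 4 to 6, 5.81% in the lowest and 2.49% in the highest. Called lower were 0.691% in the lowest class and 5.60 to 6.29% from class 4 up. The median log2 of all genes in a class ran from 0.22 in the lowest to -0.17 in the highest.

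The early calls were then followed to 24 h, with separate DMSO libraries as the control at each time. Of the 1318 genes that rose at 2 h, 675 were called higher at 24 h (51.2%, which is 25.8% of the 2613 called higher then), 11 were called lower and 632 were not called. Of the 664 that fell, 458 were called lower at 24 h (69.0%, or 21.0% of the 2178 called lower then), 2 were called higher and 204 were not called. Together 1133 genes were called the same way at both times, and 691, 694 and 1818 were without DMSO replicate 2, JNJ replicate 1 and JNJ replicate 3. The test of the difference between times, which called 2.51% of all genes tested for a more positive change at 24 h and 1.73% for a more negative one, gave a smaller change at 24 h for 68 of the 1318 and 16 of the 664. The 2 h libraries that chose these genes also enter that test, which favours a smaller later change. The shares over all genes are therefore not a like background. Iba57, a mitochondrial iron-sulfur cluster protein, was at -2.14 at 2 h and -0.03 at 24 h (adjusted p of the difference = 0.0175). Of the 13 genes called in opposite directions at the 2 times, those named here were picked after their values were seen. They were not picked by p and do not stand for all 13. Those that rose and then fell included Ccne1, Npat and Ticrr, which act at the start of S phase, Stil of the centriole, Fancm of DNA repair and the synaptic vesicle protein Sv2a. Sv2a stood at 14.6, 12.8 and 11.3 CPM with DMSO and 57.7, 37.8 and 21.9 CPM with JNJ (log2 1.60, SE 0.31, adjusted p = 0.00562) and was at -0.94 at 24 h. Pex7, a peroxisome import receptor, fell by 0.80 at 2 h and was at 0.99 at 24 h. Cep63, of the centrosome, fell by 0.87 at 2 h and was at 0.65 at 24 h. Without single libraries, Npat had an adjusted p of 0.0567 without DMSO replicate 1 and 0.0526 without DMSO replicate 2 at 2 h, Ticrr of 0.0565 without DMSO replicate 2, 0.0657 without DMSO replicate 3 and 0.0712 without JNJ replicate 1, and Fancm of 0.0792 without DMSO replicate 2, 0.0533 without DMSO replicate 3 and 0.0787 without JNJ replicate 1. Stil had 0.0944 without DMSO replicate 1, 0.0857 without DMSO replicate 2, 0.0861 without DMSO replicate 3 and 0.135 without JNJ replicate 1, Pex7 0.0578 without DMSO replicate 1, 0.0884 without DMSO replicate 2, 0.0623 without DMSO replicate 3, 0.107 without JNJ replicate 1 and 0.0696 without JNJ replicate 2, and Cep63 0.0526 without DMSO replicate 2.

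**Figure D5:**
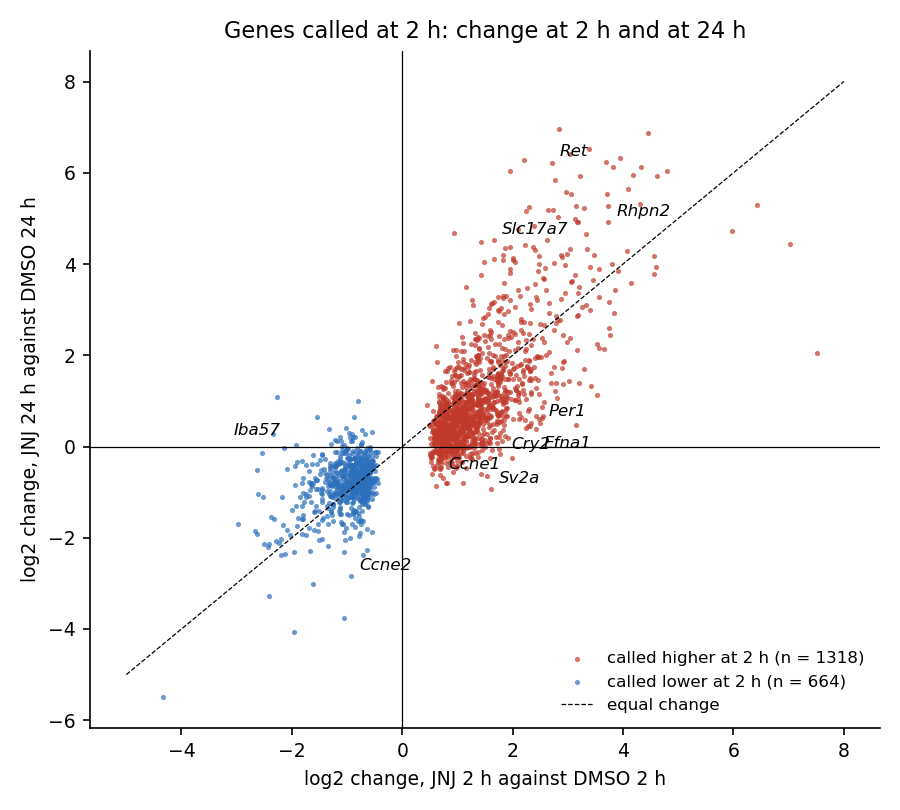
Log2 change at 24 h (vertical axis) against that at 2 h (horizontal axis) for the 1318 genes called higher at 2 h (red) and the 664 called lower (blue), with a dashed line of equal change. Ret and Slc17a7 lie above the line, and Per1, Cry2, Efna1 and Sv2a lie well below it.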

How the data were processed

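Per the labels' protocols, TruSeq Stranded mRNA libraries were made from 500 ng of RNA and read single-end for 75 bp on a NextSeq 500 (2 runs). The submitters' processing notes name STAR 2.5.1b and the build mm9. The authors deposited counts of reads for each gene symbol, not normalized: all values are whole and library sums differ. Not given in the sources used here are the counter, the annotation, the strand counted and the handling of reads with several matches. Close paralogs and overlapping or antisense genes are therefore uncertain. The 14 names in the form of a date hold 0.253% of the 2 h counts and were tested but never named. Some genes are not reported here. All columns belonged to a sample.

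All 12 JNJ and DMSO libraries (4 groups of 3) were fitted together with edgeR 4.0.16 in R 4.3.3: filterByExpr (minimum count 10, total 15), TMM scaling, group as the only term, quasi-likelihood tests, two-sided, adjusted by Benjamini-Hochberg over the 14467 genes tested. The common biological coefficient of variation was 0.294. CPM are on TMM-scaled totals except for the cell type marker sums. Standard errors (SE) are of the log2 change. At these depths 3 counts, the floor per library, are 0.0815 to 0.11 CPM, and this covers counting error only. Per-gene tests were tested on simulated data. The 15 other settings planned included other scalings, filters, DESeq2 1.42.0, a replicate block and each library left out. 1 more, without replicate 3 of both groups, was chosen after seeing the data.

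The comparison, the 74 gene lists (written from general knowledge) and the naming rule were chosen with earlier results of these data known. The rule takes the 12 largest rises and falls over 5 mean CPM among calls without overlap, up to 3 called members of each list and direction by p, the 8 largest gains and losses of CPM, the 6 genes highest with JNJ among those with at most 3 counts in every DMSO library, a fixed set of factors, and any member of a list with at most 16 tested.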

Additional observations from a re-analysis of the deposited data

Results flagged for a closer look

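For 20 of the genes named above, or used as a marker, the effect of JNJ differed between 24 h and 2 h in the edgeR test of that difference (adjusted p under 0.05), which called 2.51% of all genes tested for a more positive change at 24 h and 1.73% for a more negative one. The 2 h libraries by which most genes were named also enter this test, so these shares are not a like background. Ccne1, Npat, Ticrr, Stil, Fancm, Sv2a, Pex7 and Cep63 were called in opposite directions at 2 h and at 24 h. For these genes a difference was all but fixed by those calls. Each value below is the log2 change at 24 h minus that at 2 h. In the clock it was -1.97 for Per1, -2.03 for Per2 and -1.46 for Cry2, all 3 repressors of the loop. Among signalling genes it was -2.04 for Efna1, -1.41 for Acvr1 and -1.23 for Sema4d, and in the other direction 3.52 for Ret. For the synaptic vesicle genes it was 2.87 for Slc17a7 and -2.54 for Sv2a. The NF-kappaB regulator Tnip1 and the mitochondrial Iba57, both lower at 2 h, had 1.34 and 2.11. Genes of S phase entry, the centriole and DNA repair had -1.31 (Ccne1), -1.91 (Ccne2), -1.07 (Npat), -1.59 (Ticrr), -1.61 (Stil) and -1.89 (Fancm). Pex7 had 1.79 and Cep63 1.52. The glutamate transporter Slc1a2, which made up most of the astrocyte marker sum, had -1.67.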

How the results depend on the processing

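No called gene was called in the opposite direction under any of the 15 planned settings or the added one. Not every setting tested each named gene: of the 16, Magel2 was in 13, Epha10 and Snhg11 in 14, and Ascl2 and Wnt11 in 15. Of the 114 named genes that were called, 85 kept the call under every setting that tested them. 26 lost it under a setting other than leaving out libraries, 22 of these, when settings that leave out libraries are not counted, only when the fit held just the 6 libraries at 2 h. The 22 are the 10 genes listed above for this fit and Ccne1, Cep63, Cry1, Dbp, Fancm, Hlf, Mlx, Npat, Nr1d1, Sgms1, Stil and Ticrr. The other 4 are Per2, Pex7, Brdt and Slc10a7. Of the 15 named genes that were not called, 6 were called under another setting, namely Atf4, Egr1, Jun, Nr1d2, Sfrp1 and Snhg11. The fit of the 6 libraries, with fewer libraries to estimate the spread, called 476 genes higher and 174 lower, and 511 the same way at both times, against 1318, 664 and 1133. DESeq2 called 1066 lower, and the fit without replicate 3 of both groups 1012. The causes were not tested. Leaving out 1 library gave 668 to 2145 higher, 350 to 1220 lower and 691 to 1818 called the same way at both times. Upper-quartile scaling moved the share of calls that are higher from 66.5% to 54.5%. RLE scaling, library totals and both other filters gave 1178 to 1314 higher and 631 to 718 lower.

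The replicate numbers were not taken as pairing the libraries, since nothing in the labels says that they do. The residuals of same-numbered DMSO and JNJ libraries had correlations of -0.00469, 0.651 and 0.585. JNJ replicate 2 and JNJ replicate 3 correlated best with their own number. JNJ replicate 1 was near 0 with every DMSO library (-0.00469, -0.00642 and 0.00798), which cannot show a pairing or its absence. With the replicate block in the 12-library fit, 2103 genes were called higher, 1352 lower and 2044 the same way at both times. All 1318 and 664 were among them, and 15 genes of over 200 kb were called higher and 16 lower. Of named genes without a call, this fit called Atf4 (adjusted p = 0.0291), Jun (0.00709), Egr1 (0.0278), Sfrp1 (0.0299) and Snhg11 (0.0187). In the 6 libraries at 2 h alone the block gave 923 and 536, and called Atf4 (0.0265) and Jun (0.0296). The common coefficient of variation of 0.294 and 3 libraries a group limit what could be called. Genes near the floor of 3 counts are limited by depth.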
